A study of Drosophila melanogaster with 3 samples.

Results

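Peaks of Pif1A-GFP whose summit lay in a coding exon or a 3' UTR were a small set, 656 of the 30000 peaks in the pooled list, or 2.19%. They were chosen by annotation alone. A summit is the highest point of a peak as deposited. It had to lie over 500 bp from every annotated transcription start site (TSS), not counting starts of pseudogenes and transposable elements. It also had to lie in a coding exon or 3' UTR of a protein-coding gene. With those starts counted, 641 of the 656 remained. Of the 656 summits, 215 lay in coding exons and 441 in 3' UTRs. The chromatin came from whole pupae of a transgenic Drosophila melanogaster line that stably carries Pif1A with GFP at its C-terminus, with males and females pooled and the pupal age not known. Protein-bound DNA was sonicated, immunoprecipitated with an antibody against GFP and sequenced in 3 biological replicates, which form the study's single group and share a control. A whole pupa holds many tissues, so a peak cannot be assigned to a cell type, and flies without the tag were not analysed here. There was 1 list of 30000 peaks for each replicate, 1 of 30000 for the pooled replicates, and a shorter optimal list of 7283 peaks, which are the highest-scoring 7283 of the pooled list. The long lists run from peaks down to background by construction, so an entry is not by itself a binding site.

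Coding exons carry the codons that are translated, while the 3' UTR follows the stop codon and holds the signals for cleavage, polyadenylation, mRNA stability and localisation. In flies, as in other animals, most mapped binding of transcription factors is at promoters and in introns and intergenic DNA, where enhancers lie, although enhancers can also overlap exons. Pif1A was named as an interaction partner of the cyclin-dependent kinase Eip63E.

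The sequences that best show where the coding summits lay are those across the edge of coding sequence nearest to each. All 11 coding summits in the optimal list lay within 100 bp of such an edge. The 5 below are from the host's strand, 5′ to 3′, with 15 coding bases in capitals and the bases beyond the edge in lower case, read from the RefSeq genome of the dm6 assembly. They were picked as a kind of display after the distances were seen.
CG5895, chr3L:16037148-16037177, plus strand, coding to 3' UTR: TTTAATTTGTACTGAattgtataatactat
Pde1c, chr2L:11816543-11816572, minus strand, coding to 3' UTR: GGCGCTGCGGCCTAAggggacaattgcgcc
bif, chrX:11681703-11681732, plus strand, intron to coding: ttttttttctaacagATTTCACAGAACCGG
Ubr1, chrX:16967480-16967509, minus strand, coding to intron: GCGCTACAGTTAAAGgtgagtcgagatgca
l(3)mbn, chr3L:6124792-6124821, minus strand, coding to intron: CCGGAAATGTACCCTgtaagtgataagagg
The first 2 edges are the ends of reading frames, with the stop codon as the last capitals. The CG5895 summit lay 4 bp before its edge and the Pde1c summit 13 bp before. The other edges are splice sites. The summits lay 97 bp from the edge in bif, 84 bp in Ubr1 and 16 bp in l(3)mbn.

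The 30 bases centred on the summit are shown for the 2 highest members of each class, again from the host's strand, with the summit base in capitals. They are shown for their base composition.
CG5895, chr3L:16037144-16037173, plus strand: aatatttaatttgtaCtgaattgtataata
Pde1c, chr2L:11816556-11816585, minus strand: ggagccggcagatggCgctgcggcctaagg
Cals, chr4:1113353-1113382, minus strand: gtaattagaaattaaTagaacataaacttt
CG7872, chrX:15579775-15579804, plus strand: ggtcacaaaaaaagcAcgccacattcgcgt
The CG5895 stretch holds 4 G or C bases, the Pde1c stretch 22, the Cals stretch 5 and the CG7872 stretch 15.

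Coding exons and 3' UTRs held far fewer summits than their share of the sequence. Bases that met the same rule made up 18.0% of the 137.1 Mb of sequenced arms, 13.6% in coding exons and 4.35% in 3' UTRs. Summits in them made up 3.02%, 2.79% and 2.58% of the lists of replicates 1, 2 and 3, a mean of 2.80 ± 0.224% (SD, n = 3). Coding exons took 1.08 ± 0.158% of each list and 3' UTRs 1.72 ± 0.143% (SD, n = 3). Every replicate lay below the share of bases, and a two-sided exact sign-flip permutation test over the replicates gave p = 0.25 for both classes together and for each alone. That is the smallest p that 3 replicates allow, so no such test here can pass 0.05. Per Mb of the bases of each class, the pooled list had 11.5 summits in coding exons and 73.9 in 3' UTRs, against 274.9 in introns and 195.7 in intergenic DNA, all over 500 bp from a TSS. In the optimal list the densities were 0.588 per Mb in coding exons and 8.71 in 3' UTRs, against 65.3 in introns and 33.8 in intergenic DNA. As a ratio, the gap between coding exons and introns was wider in the optimal list.

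Members were mostly low in the pooled list. Peaks were ranked by the signal value the authors deposited, called the score below, which has no unit and whose scale depends on the list. The median score was 31.3 for members, 28.6 in coding exons and 32.9 in 3' UTRs, against 42.9 for intronic peaks and 43.6 for the whole list. The scores of members ran from 21.2 to 661. The median rank, with 1 the highest, was 20680 for members. The optimal list held 63 members, 11 of them in coding exons and 52 in 3' UTRs. That is 9.60% of members, 5.12% in coding exons and 11.8% in 3' UTRs, against 24.3% of all pooled peaks and 23.7% of intronic ones.

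The same gradient was present in each replicate list. Split into quintiles by score from highest to lowest, the lists held coding summits at 0.117 ± 0.0288%, 0.400 ± 0.0167%, 0.917 ± 0.224%, 1.64 ± 0.121% and 2.31 ± 0.497% of each quintile (SD, n = 3). Summits in 3' UTRs made up 0.650 ± 0.000627%, 1.20 ± 0.159%, 1.64 ± 0.162%, 2.46 ± 0.195% and 2.65 ± 0.284% (SD, n = 3). The 7283 highest peaks of each replicate were then set against the rest of its list. Members made up 0.875 ± 0.0827% of these highest peaks and 3.41 ± 0.286% of the remaining peaks (SD, n = 3), a difference of -2.54 ± 0.270 percentage points with the same sign in all 3 replicates (exact sign-flip permutation test, p = 0.25).

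**Figure D1:**
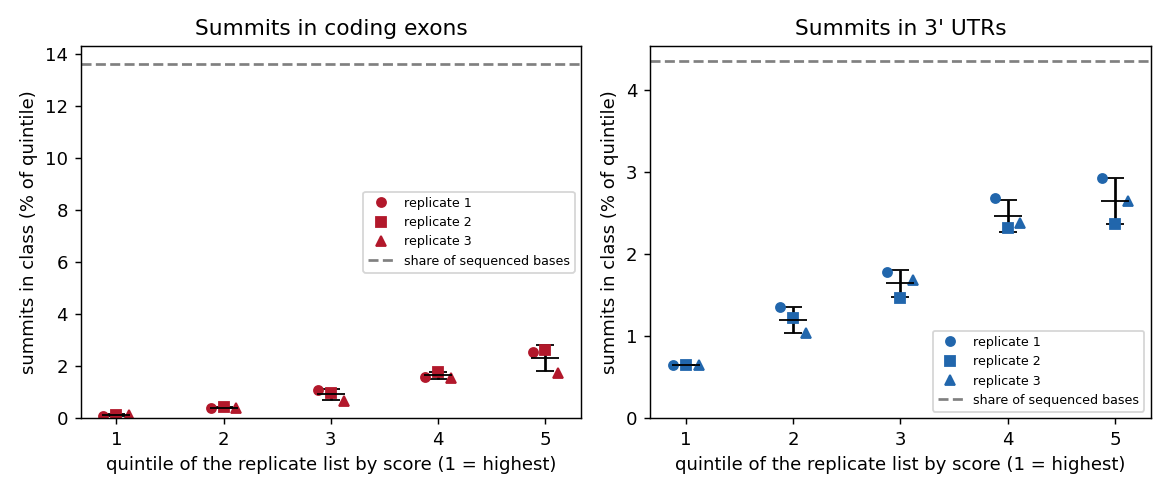
Share of each quintile of the replicate lists, ordered by score from highest (1) to lowest (5), with the summit in a coding exon (left) or a 3' UTR (right). Symbols are the 3 replicates, bars the mean and SD, and the dashed line the share of sequenced bases in the class; every symbol lies below the line, and the lowest quintile holds the largest mean share in both panels.

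Median scores just inside and just outside the TSS limit were close. Over 500 and up to 600 bp there were 13 coding summits with a median score of 29.5 and 16 in 3' UTRs with a median of 39.5. Over 400 and up to 500 bp there were 25 coding summits with a median of 27.0 and 20 in 3' UTRs with a median of 39.2. Members lay up to 29836 bp from a TSS in coding exons and up to 38480 bp in 3' UTRs.

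Within the coding sequence, summits were unevenly placed. Of the 215 coding summits, 73 (34.0%) lay in the first quintile, of 5 equal lengths, of the host's coding sequence, which held 13.1% of the eligible bases. The later quintiles held 44, 29, 20 and 49 summits, or 20.5%, 13.5%, 9.30% and 22.8%, against 19.6%, 22.0%, 22.8% and 22.5% of the bases. In the replicate lists the first quintile held 25.4%, 28.6% and 28.6% of coding summits, 27.5 ± 1.87% (SD, n = 3), all above 13.1% (exact sign-flip permutation test, p = 0.25). The last quintile held 24.7 ± 2.17% (SD, n = 3), with replicates on both sides of 22.5% (exact sign-flip permutation test, p = 0.5). The median coding summit was 0.362 of the way through the coding sequence, against 0.558 for eligible bases, while its distance from the nearest TSS was much alike at 1817 bp against 1896 bp.

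In 3' UTRs the summits lay toward the far end. The 5 quintiles of the UTR from the stop codon on held 63, 73, 87, 93 and 125 of the 441 summits. The last quintile thus held 28.3%, against 19.4% of eligible bases, and the first 14.3%, against 20.1%. The replicate lists had 25.8 ± 0.880% in the last quintile and 13.5 ± 2.35% in the first (SD, n = 3), each on the same side of its base share in all 3 (exact sign-flip permutation test, p = 0.25 each). The median 3' UTR summit lay 605 bases past the stop codon, against 477 for eligible bases. Within 100 bases of the transcript's end there were 19.7% of the 3' UTR summits, against 15.6% of the bases. Transcripts of a single exon held 12.5% of the 3' UTR summits, against 6.13% of the bases.

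**Figure D2:**
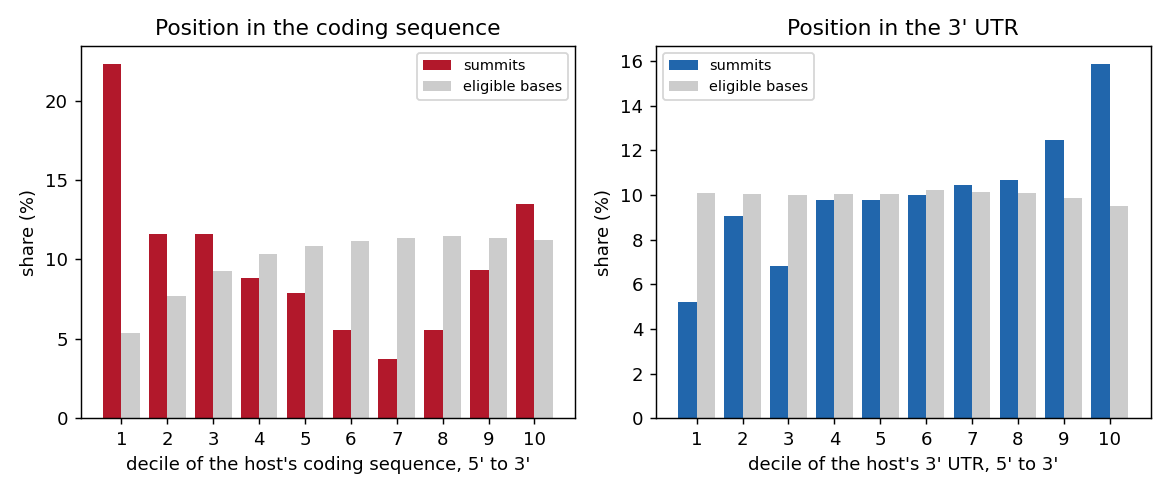
Share of summits (coloured bars) and of eligible bases (grey bars) in each decile of the host's coding sequence (left) and 3' UTR (right), 5' to 3', in the pooled list. Coding summits are most frequent in the first decile and 3' UTR summits in the last.

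Coding summits lay close to the edges of coding blocks. Blocks were formed by merging overlapping coding exons of all transcripts, and the distance was taken to the nearer end of the block. The median was 54 bp for the 215 coding summits, against 170 bp for eligible coding bases. Within 100 bp of an edge were 153 coding summits (71.2%), against 36.3% of bases, and within 25 bp were 30.2%, against 10.7%. In the replicate lists 66.2%, 67.2% and 62.5% of coding summits lay within 100 bp, 65.3 ± 2.51% (SD, n = 3), all above 36.3% (exact sign-flip permutation test, p = 0.25). Beyond the edge of those 153 lay an intron in 113, a 3' UTR in 20 and a 5' UTR in 16. The intron was downstream of the summit in 62 of the 113 and upstream in 51.

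The exons were also short. The median length of the exon under a coding summit was 431 bases, against 978 for eligible bases, and 82 summits (38.1%) lay in exons of at most 300 bases, which held 16.3% of the bases. Distance to a block edge was not compared at matched exon length. The part of short exons in the edge shares was thus not tested. The median peak was 424 bp wide, as in the whole list, and most of these peaks reached past coding sequence. The median coding share of a peak was 61.6% and the median intronic share 27.4%. Only 30 of 215 lay wholly in coding sequence. No such shares are given for stretches of 424 bp around eligible bases, so these values describe the peaks alone.

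Coding summits far from an edge did not reach the optimal list. None of the 62 coding summits over 100 bp from an edge was in the optimal list, against all 11 optimal coding summits among the 153 nearer ones. The median score was 27.1 for the 62 and 29.5 for the 153. Matches in all 3 replicates were found for 4 (6.45%) of the 62 and 18 (11.8%) of the 153. These counts are small, and the far and near summits also differed in median GC content, 55.9% and 51.5%. The part of GC in this difference was not tested. A count of 0 in 62 allows a share of up to 4.84%, taking 3 as the count that 0 allows and counting error alone.

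Summits in 3' UTRs were not concentrated near block edges. Within 100 bp of a 3' UTR block's edge lay 23.8% of them, against 27.7% of eligible bases. In the replicates it was 24.1 ± 0.573% (SD, n = 3), below the base share in all 3 (exact sign-flip permutation test, p = 0.25). Of the 441 peaks, 239 lay wholly within 3' UTR sequence. An intron of another protein-coding transcript covered the summit of 35 coding members (16.3%) and 75 in 3' UTRs (17.0%). That transcript can be of the host or of another gene on either strand. No share of eligible bases is given beside these counts of whole peaks and of introns.

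**Figure D3:**
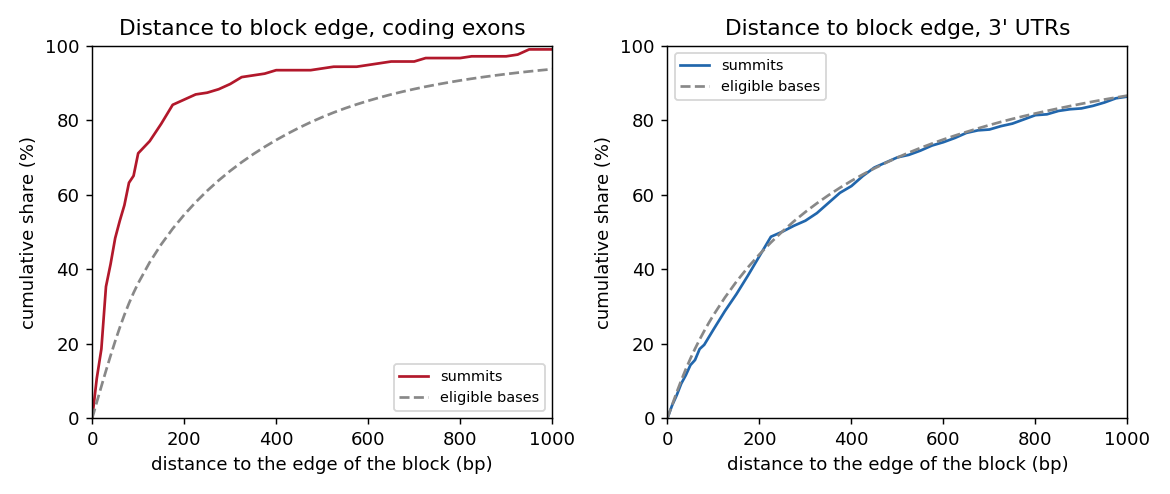
Cumulative share of summits (solid) and eligible bases (dashed) by distance in bp to the nearer edge of their block, for coding exons (left) and 3' UTRs (right), pooled list. At 100 bp the coding curve stands at 71.2% against 36.3% of bases, and the 3' UTR curves run close together.

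Median GC content, over all summits of a class, was close to that of the sequence class. Counted within 50 bases of the summit on either side, the median GC was 53.5% at coding summits and 53.5% over eligible coding bases. Coding summits within 100 bp of a block edge had a median of 51.5% and those further away 55.9%. At 3' UTR summits it was 35.6%, against 34.7% over eligible 3' UTR bases. Intronic peaks also had a median of 35.6%. In the highest quintile of the pooled ranking the medians were 32.2% at 3' UTR summits and 31.7% at intronic ones. In the replicates the median of coding summits was 52.5%, 52.5% and 53.5%, against 36.6%, 36.6% and 35.6% for intronic summits, a difference of 16.5 ± 1.14 percentage points (SD, n = 3; exact sign-flip permutation test, p = 0.25). The gap was smaller over longer stretches: in the pooled list the median was 48.4% at coding summits, against 39.2% at intronic ones, with 200 bases on either side, and 48.1% against 39.2% over the whole peak. At 3' UTR summits it was 34.7%, 35.6% and 34.7%, below the intronic median in every replicate by 1.98 to 0.990 percentage points.

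Lower density in coding exons was present at every GC level. In the 8 GC bins, coding exons held 10.1 to 22.99 pooled summits per Mb, against 158.5 to 475.5 in introns. Intronic summits became sparser with GC, at 475.5 per Mb below 30% GC and 158.5 per Mb from 50% to under 55%, the lowest bin. The 3' UTR density was 61.5 per Mb below 30% GC and 83.4 per Mb from 50% to under 55%, with a highest value of 129 from 55% to under 60% that rests on 13 summits. The coding bin below 30% GC rests on 2 summits.

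**Figure D4:**
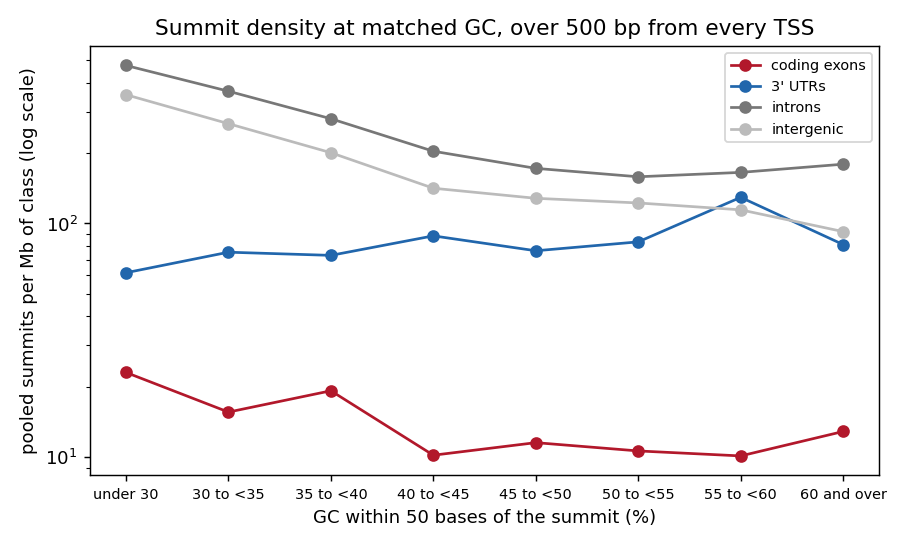
Pooled summits per Mb of each class (log scale) over 500 bp from every TSS, by GC content in percent within 50 bases of the summit on either side. Coding exons lie below all other classes in each bin, and 3' UTRs lie below introns in each bin.

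A smaller share of members than of all pooled peaks was matched in each replicate. A match is a replicate summit within 100 bp. Replicates 1, 2 and 3 matched 50%, 49.5% and 54.0% of members, against 63.6%, 63.7% and 66.6% of all pooled peaks. All 3 replicates matched 115 members (17.5%), 22 in coding exons (10.2%) and 93 in 3' UTRs (21.1%), against 35.4% of all pooled peaks and 35.6% of intronic ones. No replicate matched 78 members. The pooled list was made from the same 3 libraries and the control is shared, so a match is not independent evidence of binding.

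Within quintiles of the pooled ranking, the members' share was below that of intronic peaks in each but the second. From the highest quintile to the lowest there were 49, 79, 130, 172 and 226 members. Of these, 81.6%, 63.3%, 16.9%, 1.74% and 0% were matched in all 3 replicates, against 90.7%, 61.8%, 24.1%, 3.37% and 0.337% of intronic peaks. In the lowest quintile, 0 of 226 allows a share of up to 1.33%. Among optimal peaks, 49 of 63 members (77.8%) were matched in all 3, against 86.8% of all optimal peaks. These were 6 of 11 in coding exons and 43 of 52 in 3' UTRs.

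The 11 optimal coding members were also ranked in the replicates, where they were matched. The highest, at the end of the reading frame of CG5895 on 3L, had a pooled score of 303.8 and rank 1333, with ranks 2093, 1525 and 1174 in replicates 1, 2 and 3. The summit in Pde1c on 2L, which encodes a calcium- and calmodulin-dependent phosphodiesterase, scored 229.3 at rank 2042, with replicate ranks 2551, 2473 and 2160. Its GC within 50 bases was 69.3%, against 27.7% in CG5895. These peaks were close in rank and far apart in base composition.

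The summit in otp on 2R, the gene of the orthopedia homeobox factor, scored 171.8 at rank 3125, with ranks 1934 and 1611 in replicates 2 and 3 and no match in replicate 1. That in bif on X, which encodes the actin-binding protein bifocal, had rank 3250 and replicate ranks 3691, 2648 and 4521. It lay 9.15% of the way through the coding sequence. Only CG5895, Pde1c and bif were among the 7283 highest peaks of every replicate.

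Ubr1, which encodes a ubiquitin ligase of the N-degron pathway, had its summit 1.73% of the way through the coding sequence, with pooled rank 5410 and replicate ranks 4697, 5229 and 7948. The summit in Socs36E, a suppressor of JAK/STAT signalling, had rank 5548, with ranks 2318 and 2853 in replicates 1 and 3 and no match in replicate 2. In su(w[a]), which encodes a splicing regulator, the rank was 5638 and the replicate ranks 14412, 5373 and 5874. The other 4 were in mtd, an OXR1 relative (rank 6122), l(3)mbn (6154), Dph4, a diphthamide synthesis gene (6995), and Tsp42Ee, a tetraspanin gene (7262). Of these 4, only l(3)mbn was matched in all 3 replicates, at ranks 7831, 7472 and 5497.

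The 12 highest 3' UTR members are given next. The first, in Cals on chromosome 4, the calsyntenin gene, scored 661 at pooled rank 259 and had ranks 305, 295 and 295 in the replicates. It lay 2460 bases past the stop codon of a 2953-base UTR. CG7872 on X scored 604 at rank 333, with replicate ranks 434, 310 and 345, and lay 355 bases past the stop of a 422-base UTR. The third, in stas on X, scored 554 at rank 408, with replicate ranks 357, 397 and 570. No replicate ranked any of these 3 below 570.

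The summit in by on 3R, the tensin gene blistery, had rank 639 and replicate ranks 838, 536 and 707. That in Ance-3, of the angiotensin-converting enzyme family, had rank 702 and replicate ranks 1081, 604 and 712. That in APC7, a subunit gene of the anaphase-promoting complex, had rank 775 and replicate ranks 900, 665 and 811, and at 573 bp was nearest to a TSS among the 12 highest. The peak in Lsd-2, the perilipin gene of lipid droplets, had rank 1103 and replicate ranks 1010, 1690 and 740.

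NetB, which encodes the axon guidance cue Netrin-B, had a summit at rank 1186 with replicate ranks 1067, 1328 and 1426, lying 1944 bases into a 5224-base UTR. The remaining 4 of the 12 highest were CG33307, CG14440, CG13405 and dia, the formin gene diaphanous, at ranks 1234, 1444, 1569 and 1895. The CG13405 summit lay 4 bases before its transcript's end. The dia summit lay 3 bases before the end of a transcript of 2 exons, within an intron of another protein-coding transcript. Its peak was 59.9% intronic and 40.1% in 3' UTR. The stas and CG33307 summits also lay in an intron of another protein-coding transcript. All 12 were matched in all 3 replicates. These 12 were picked for their pooled score, to which the replicates contribute, so their ranks are a description.

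**Figure D5:**
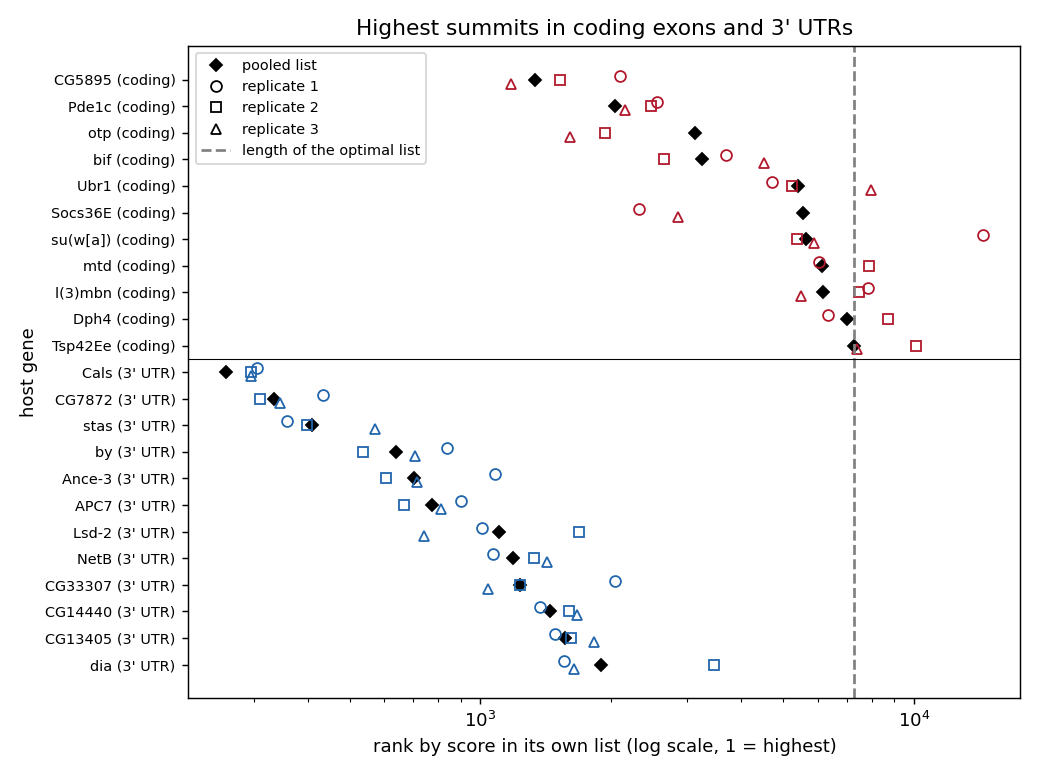
Rank by score (log scale, 1 = highest) of the 11 coding members in the optimal list (upper rows) and the 12 highest 3' UTR members (lower rows), in the pooled list (diamonds) and in each replicate (open symbols). A missing symbol means no replicate summit within 100 bp; the dashed line marks rank 7283, the length of the optimal list, which some replicate ranks of coding members exceed and none of the 3' UTR members shown do.

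Members were present on every arm but Y. X held 146 members, or 30.9 per Mb of eligible bases, and 2R held 100, or 21.8 per Mb, with 25.3 on 2L, 28.0 on 3L and 26.4 on 3R. The classes differed in this: coding density on X was 9.90 per Mb, against 9.76 to 13.3 on the arms of chromosomes 2 and 3, and 3' UTR density on X was 80.9 per Mb, against 64.3 to 77.7. Chromosome 4 held 13 members, 36.9 per Mb, and Y held 0. Of the 63 optimal members X held 20, against 9 to 12 on each arm of chromosomes 2 and 3, and chromosome 4 held 1. No share of all optimal peaks by arm is given beside these counts. They thus do not show whether X differs for members in particular.

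The 656 members fell in 567 host genes, 4.34% of the 13059 protein-coding genes with eligible bases. Most hosts, 489, held 1 member, and 78 held 2 or more, with 184 members between them. Hosts were long genes, with a median length of 6916 bp against 2336 bp for all eligible genes. By quartiles of eligible bases from fewest to most, 1.40%, 2.61%, 4.29% and 9.07% of genes were hosts. The share thus followed the amount of eligible sequence.

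Many host genes also had a peak at a start site. In the pooled list 382 hosts (67.4%) had a summit within 500 bp of one of their TSSs, against 29.2% of all eligible genes and 27.5% of those without a member. In the optimal list 182 hosts (32.1%) did, against 14.7% of all and 13.95% of those without a member. Length was related to this. Within quartiles of gene length from short to long, the pooled share was 38.5%, 46.1%, 65.5% and 77.8% in hosts, against 14.5%, 18.0%, 25.1% and 54.6% in genes without a member. The optimal share was 25%, 22.4%, 31.1% and 35.9% in hosts, against 5.66%, 8.75%, 13.5% and 29.1%. Hosts were higher in every quartile. The shortest quartile held 52 hosts. Genes are not replicates, and no test was made.

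No host held more than 5 members, and 9 held 4 or 5. The actin regulator gene bif had 5, of which 3 were coding and 2 in its 3' UTR, and CG32767 had 5, all in its 3' UTR. The coding peaks of bif had scores of 166.7, 72.8 and 46.0, and those in its UTR 37.1 and 30.1. Lsd-2 had 4 in its 3' UTRs, 3 of them in the optimal list and matched in all 3 replicates, with pooled ranks 1103, 1945 and 4154, while the fourth had rank 17364. CG4004 also had 4, with 2 in the optimal list. CG12535 had 4, of which 3 lay in a 3' UTR that overlaps that of Myc on the other strand, with the highest at 111 and rank 5497. The deposited lists carry no strand, so those 3 peaks belong to either gene. Equal at 4 but with lower highest scores were mtd on 3R, with 2 in the optimal list, and CG1888 on 2R, mub on 3L and Octalpha2R on 3R, with none. Some of these counts hold close neighbours: 4 of the 5 summits of bif, and 4 of the 5 of CG32767, form pairs 199 to 204 bp apart.

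The host genes were set beside 11 gene lists, chosen with earlier results of these data known and compared by counts alone. Of 346 listed names 339 were found. Beside the 4.34% of all eligible genes, hosts made up 10 of 50 homeobox and patterning genes (20.0%), 6 of 29 RNA-binding and translation genes (20.7%), 7 of 30 long-coding adhesion and matrix genes (23.3%) and 7 of 37 neuronal genes (18.9%). Ecdysone response genes had 3 of 20 (15%), signalling genes 4 of 40 (10%), and Notch pathway and heat shock genes 2 of 21 each (9.52%). Muscle genes had 2 of 27 (7.41%), cuticle genes 2 of 31 (6.45%) and Polycomb, trithorax and insulator genes 1 of 30 (3.33%).

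The order of the lists was different per eligible Mb. Homeobox genes had 69.2 members per Mb and heat shock genes, with 2 members, had 61.7 per Mb, against 26.6 over all arms. Adhesion genes had 41.5 per Mb, RNA-binding genes 40.1, ecdysone response genes 36.9 and Notch pathway genes 33.2. Neuronal genes had 27.5, signalling genes 26.6, Polycomb, trithorax and insulator genes 19.0, cuticle genes 16.0 and muscle genes 10.01. These densities rest on 2 to 11 members a list.

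The members in listed genes were mostly low, and only those in otp and wts, the Hippo pathway kinase gene, were in the optimal list. The wts summit lay 5 bases before the transcript's end at rank 6832. Next to otp, the highest patterning genes were inv, an engrailed paralog, at 64.7 and Kr, the gap gene Krüppel, at 49.2. The ecdysone-induced receptor gene Hr3 had 3 members, the highest at 57.0, with E23 at 34.8 and the coactivator gene tai at 22.9. The Notch pathway hosts were fng, a glycosyltransferase gene, at 25.6 and the ligand gene Ser at 25.1. Both lie near the bottom of the list.

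Neuronal hosts were led by Syt1, the synaptic calcium sensor synaptotagmin, at 45.9, Dscam2 at 43.3 and unc-13 at 24.6. Among RNA-binding genes how had 60.9, Imp 51.01 and sm 29.9. The adhesion genes rst, ds and kon had 80.6, 27.8 and 26.5, and the signalling genes rho, a protease of the EGF receptor pathway, and ds had 42.2 and 27.8. The muscle list held Act5C, a cytoplasmic actin gene, at 33.2 and bt, the projectin gene, at 24.5. The cuticle list held nyo at 50.5 and mey at 29.2, both of zona pellucida domain proteins. Heat shock hosts were Hsc70-3, the BiP gene, at 50.9 and Hsp23 at 24.98, and the Polycomb list held Su(z)2 at 34.3. For scale, the whole pooled list had a median score of 43.6.

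Short motifs were searched within 50 bases of each summit, on both strands, and set beside windows centred on eligible bases of the same class. Within 50 bp of a block edge lay 48.4% of coding summits, against 20.7% of eligible coding bases. Windows at coding summits thus reached past coding sequence more often than their background windows. The part of this in the differences below was not tested. The GAGA factor motif, GAGAGA, was in 4.19% of coding windows, against 2.36% of coding bases, and in 4.99% of 3' UTR windows, against 3.82%. The repeat CAGCAGCAG, found in glutamine-rich coding sequence, was in 4.65% of coding windows, against 2.82%. TGANTCA, the AP-1 motif, was in 3.26% of coding windows, against 1.40%, and in 3.17% of 3' UTR windows, against 1.77%.

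In 3' UTR windows the A-rich motifs did not all go 1 way. AATAAA, which can serve as the polyadenylation signal, was in 7.44% of coding windows, against 3.81%, and in 30.6% of 3' UTR windows, against 27.4%. It was also in 29.1% of intronic peaks. AAAAAAAA was in 13.2% of 3' UTR windows, against 8.18%, and in 12.2% of intronic peaks. In 3' UTR windows TATAAA was in 18.6%, against 19.7%, and the GATA motif AGATAA in 6.35%, against 6.65%. In coding windows these motifs, like AATAAA, were above the coding bases. AAAAAAAA was in 1.40%, against 0.487%, TATAAA in 4.65%, against 2.71%, and AGATAA in 4.65%, against 2.99%. CAGGTA, the Zelda motif, was in 0.930% of coding windows, against 3.22%, and in 1.59% of 3' UTR windows, against 1.42%. The heat shock element GAANNTTC was in none of the 215 coding windows, against 2.40% of coding bases. By counting error alone, 0 of 215 allows a share of up to 1.40%. That limit takes the windows as independent, although some summits are close neighbours, so it is not a test against the bases. The element was in 2.49% of 3' UTR windows, against 2.47%. With 215 coding windows each percent is about 2 windows, and a match is a description of these letters, not a site. Of the 14 motifs searched, these 9 are named after their values were seen.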

How the data were processed

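Peak lists of 3 replicates, their pool and an optimal list were used, all on dm6 (BDGP release 6, coordinates 1-based); the dm3 lists were not used. Per the deposited file descriptions, the long lists were made as input for the irreproducible discovery rate procedure from alignments and a shared control. No aligner or peak caller was given in the sources used here. The signal value of each peak is the authors' and was used only to rank and describe peaks within a list. The −log10 q-value the authors deposited was not used for ranking. Without read counts, the depth behind a peak is unknown.

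Genes were from Ensembl release 115 and sequences from RefSeq, both of the dm6 assembly; starts of pseudogenes and transposable elements were not counted as TSSs. A summit over 500 bp from every TSS was placed in coding sequence first, then 3' UTR. The host transcript was the one with the longest coding sequence, then the longest. Eligible bases are all sequenced bases of the 7 arms that meet the same rule, counted base by base, and motif backgrounds were adjoining windows of the same length centred on such bases. Peaks are not replicates, so tests were two-sided exact sign-flip permutation tests over the 3 replicates. No label says that the replicates came from separate broods beyond calling them biological, so the tests describe only these samples. When all differences share a sign, the exact sign-flip permutation test gives its smallest p-value, whatever their size or spread. Matching of summits was tested on simulated summits. Classification and GC content were checked directly at positions drawn from the annotation and the genome. Positions in the transcript, edge distances, motif counts and the permutation test were not tested in this way. Versions were Python 3.11.15, numpy 2.4.6, pandas 2.3.3, scipy 1.17.1 and matplotlib 3.10.9. Alternatives were another TSS distance, match rule, GC window, number of highest peaks, annotation rule and each replicate left out.

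The members and gene lists were chosen with earlier results of these data known. Named genes were the coding members of the optimal list, the 12 highest 3' UTR members, 5 genes with most members (ties by highest score) and up to 3 hosts in each gene list. Any other gene was named after its values were seen.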

Additional observations from a re-analysis of the deposited data

How the results depend on the processing

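Of 51 alternative values computed, 41 stayed within their limits. None turned the direction where its comparison value was given too. For the edge share and the position along the transcript, the value for eligible bases was not given again under the alternatives. The share of members matched in all 3 replicates, 17.5%, depended most on the rule for a match. It was 8.08% with summits within 50 bp, 26.5% within 200 bp, 35.2% with 1 bp of overlap, 25.2% with overlap of 50% of both lengths and 4.27% within the highest 7283 peaks of each replicate. Leaving out each replicate, so that 2 had to match, gave 25.8% to 28.8%. Under all of these the share for all pooled peaks was higher, at 20.5%, 47.9%, 58.9%, 43.8% and 13.6%, and 44.1% to 46.2% with a replicate left out.

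The share of all members within 100 bp of a block edge, 39.3%, was 44.9% with a TSS distance of 200 bp and 35.1% with 1000 bp, where members numbered 802 and 516. For coding summits alone it was 72.7% and 71.4%. Chosen after seeing the data, leaving out members that overlap a higher peak gave 68.4%, leaving out summits in an intron of another transcript 71.1%, and keeping only those matched in all 3 replicates 81.8% (18 of 22). With 200 bases on either side of the summit, or the whole peak, the GC difference between members and intronic peaks did not have 1 sign in all replicates (exact sign-flip permutation test, p = 0.5 each). No paired analysis was possible because the study has 1 group. Depth is unknown and 3 replicates cannot give a p under 0.25.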

Other observations

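No 2 summits of the pooled list lay closer than 199 bp, and many lay just beyond that distance. Among members, 69 of 656 (10.52%) had another pooled summit within 210 bp, against 17.1% of all pooled peaks. These closely spaced members had a median score of 46.6, against 30.5 for the other members. The same direction held for all pooled peaks, at 60.3 against 41.0, and for intronic peaks, at 60.1 against 40.5. Peaks are 424 bp wide at the median, so such neighbours overlap. Of the summits of 1 host gene, 19 pairs in 17 genes were within 210 bp. They include the 2 highest of Lsd-2, at ranks 1103 and 1945 and 199 bp apart, the 2 highest coding summits of bif, at ranks 3250 and 8939, and a pair in the 3' UTR of CG32767, at ranks 6451 and 14023. Both genes had another such pair, at ranks 17572 and 21471 in bif and 14988 and 25194 in CG32767. Whether such a pair is 1 site or 2 was not tested. With members that overlap a higher peak left out, 572 members in 527 host genes remained.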
